A study of Mus musculus with 20 samples.

Results

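Control cultures of mouse cerebellar granule neurons at day 7 in vitro are described here from 5 sequenced libraries, control 1 to control 5, chosen as the libraries that the labels call control, out of 20 libraries in a series of 4 groups. The series was built to ask whether the enzymatic domain of the histone demethylase Kdm6b restores synaptic gene expression after knockdown, and the other groups carried the knockdown alone or with an active or a dead domain. The cultures were put on a schedule of virus on day 1, the antimitotic drug AraC on day 2 and harvest on day 7, and which virus the controls received is not stated in the labels. Strain, age, sex, the number of animals and whether the libraries came from separate cultures are not stated there either, so the spread between libraries may be technical or biological.

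Cerebellar granule neurons are small glutamatergic neurons and the most numerous neurons of the brain. In rodents they are born after birth from Atoh1-expressing progenitors in the outer layer of the cerebellar cortex, extend parallel fibres that release glutamate through the transporter encoded by Slc17a7, and receive excitation from mossy fibres and inhibition from Golgi cells. During maturation they are known to exchange NMDA receptor subunits, to start making the GABA-A receptor subunits encoded by Gabra6 and Gabrd, and to raise the chloride exporter encoded by Slc12a5. AraC blocks DNA synthesis and is added to such cultures to limit the growth of dividing cells, among them glia and fibroblasts.

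The 5 libraries held 16145488 to 20598548 estimated counts over 24411 genes. Levels are given in TPM, for which each gene's count was divided by the length of its longest annotated transcript and scaled so that a library sums to 1000000. A gene of 3 kb with 3 counts had 0.129 to 0.172 TPM, which covers counting error only. Levels of different genes are compared in TPM, and 1 gene between libraries in TPM or in CPM, counts per 1000000 with TMM scaling, which uses no length. Every value with ± is a mean and SD over n = 5 libraries, values in a series run from control 1 to control 5, and no test was made, since there was 1 group. In bulk RNA, fewer cells of a type and less RNA per cell cannot be told apart.

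Control 4 stood apart from the other libraries. Its Pearson correlation with each of them across 14129 genes (log2 CPM) was 0.836 to 0.879, against 0.948 to 0.982 for the other pairs, and genes are not independent replicates. Its mean transcript length, weighted by counts, was 3.30 kb, against 4.44 to 4.73 kb in the rest. Genes with transcripts under 1 kb were higher in control 4 than the mean of the other libraries by a median of 1.20 on the log2 scale, and genes over 10 kb fell by a median of 1.57. Genes of the release machinery, scaffold, identity and late granule lists described below had negative medians in control 4 at every length. The median log2 difference was -0.81 for 17 genes of up to 3 kb. It was -1.05 for 30 genes of 3 to 6 kb and -1.85 for 28 genes over 6 kb. The highest single genes of these classes reached 0.83, 0.41 and 0.06. Early postmitotic granule genes were not included. Of 19 such genes with a mean of at least 10 CPM, 8 were highest and 7 lowest in control 4. Over all 10699 genes these shares were 35.9 and 43.1%. What part length has in the differences of control 4 was not tested, and values without it are given beside those that rest on it.

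**Figure D1:**
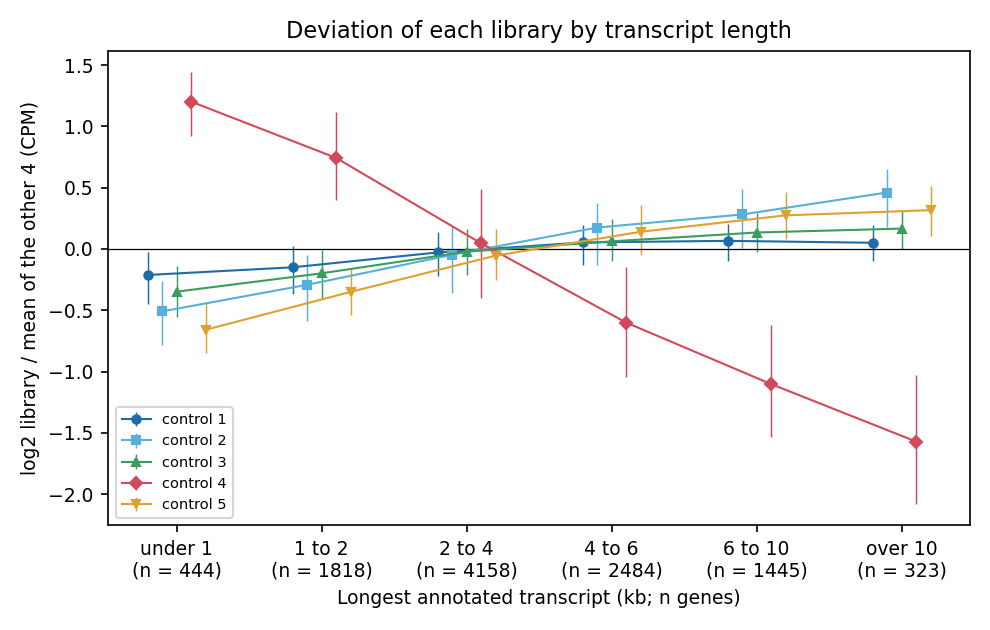
Median log2 ratio of each control library to the mean of the other 4 libraries (CPM, vertical axis) for genes grouped by the length of their longest transcript (horizontal axis, kb), with bars from the lower to the upper quartile of genes. Control 4 runs from 1.20 for the shortest genes to -1.57 for the longest, and the other libraries run the opposite way with smaller values.

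The most abundant transcripts encoded ferritin, translation factors, lysosomal proteins and proteins of glia and matrix rather than neuronal proteins. Ftl1, the ferritin light chain that stores iron, led at a mean of 7655 ± 3259.6 TPM, with 8208, 5896, 6415, 13036 and 4721 TPM in the single libraries. It was the top gene in controls 1, 2 and 4 and lay behind the elongation factor gene Eef1a1 in controls 3 and 5. Eef1a1 had 5667, 4869, 7206, 5770.2 and 6669.7 TPM, and Fth1, the ferritin heavy chain, 5337, 4602, 5604, 8675 and 4214 TPM. Apoe, a lipid carrier made by astrocytes and activated microglia, followed with 5459, 3298, 3096, 11803 and 2060.1 TPM, a mean of 5143 ± 3923 and 3478 ± 1427 without control 4. Control 4 was the highest library for Ftl1, Fth1 and Apoe. Eef1a1 was highest in control 3 in TPM, but in control 4 by CPM, with 4805 against 4359 CPM in control 3.

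The rest of the 25 leading genes fell into a few kinds. Ctsd, a lysosomal protease, had 3806 ± 1630.1 TPM, and Psap, the precursor of the saposins that assist lipid breakdown in the lysosome, 1975 ± 234 TPM. The cytoskeleton gave Tmsb4x, Actb, Actg1 and Tuba1a, at means between 2268 and 3742 TPM. Gapdh and Aldoa, enzymes of glycolysis, stood at 3055 ± 756 and 2141 ± 549.9 TPM, and both were highest in control 5. Sparc, a matrix glycoprotein, Spp1, the secreted phosphoprotein osteopontin, Igfbp2, an IGF-binding protein, and the intermediate filament gene Vim had 2939 ± 570.3, 2891 ± 991, 2383 ± 1159 and 2381 ± 425 TPM. Gfap, the intermediate filament of astrocytes, had 2548, 1836, 1196, 4509 and 559.6 TPM, so that its lowest library was control 5 and its highest control 4. The remaining leaders were B2m and Ifitm3, which encode an MHC class I chain and an interferon-inducible membrane protein, Ckb (brain creatine kinase), Tpt1, Cox8a and the ribosomal protein genes Rplp1, Rpl13 and Rpl23a.

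Of the 100 genes highest in mean TPM, 28 encoded ribosomal proteins, 4 were on the list of fibroblast and meningeal markers, 3 on that of astrocytes, 1 on that of microglia, 1 on that of choroid plexus, and 0 on that of granule neuron identity. Snap25, a synaptic fusion protein gene on the late granule neuron list, was the single member of that list among them, with 2485, 2804, 1569, 512 and 1801 TPM. In counts, without regard to length, the 100 most abundant genes of each library took 18.1, 16.6, 16.7, 17.4 and 15.3% of the total, a mean of 16.8 ± 1.04%. The leading genes by CPM were Rn45s, the ribosomal RNA precursor, at 25549 ± 21872 CPM, Eef1a1 at 3882 ± 774, Fn1 at 3717 ± 2739.8 and Col3a1 at 3712 ± 3125, the last pair encoding fibronectin and a fibrillar collagen. The nuclear RNA Malat1 had 4409, 6773, 5973, 256 and 975 CPM, low in controls 4 and 5. Rn45s split the libraries the same way, with 51669, 37986, 32355, 3654 and 2080.1 CPM. Of 24042 genes with a length, 12887 (53.6%) reached 1 TPM in all 5 libraries and 9057 (37.7%) stayed below it in all 5.

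A TATAAA hexamer, the core of the TATA box, was looked for on both strands in the windows from 250 bases before to 50 after each start (RefSeq, GRCm38.p6), because highly expressed genes are a class in which this element is often described. Of the 25 leading genes, 22 had a window and 7 of these (31.8%) held the hexamer, against 14.4% of 15587 protein-coding genes of the count table, with no test. For Spp1 it lay 211 bases before the start and for Ftl1 17 bases after it. For Apoe, Fth1 and B2m it was on the opposite strand, 100 to 152 bases before the start. The hexamer lay closest before the start at 28 bases for Ckb and 32 bases for Vim. Windows of Ckb and Vim are shown 5′ to 3′ with the hexamer in capitals. They lie at chr12:111672349-111672378 on the minus strand and chr2:13574267-13574296 on the plus strand. A match describes the letters and does not show a site in use.
Ckb: gaatgaatgggcTATAAAtagccgccaatg
Vim: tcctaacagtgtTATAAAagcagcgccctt

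The markers of granule neurons were present in every library. Of 18 identity genes, 17 were at 1 TPM or more in all 5 libraries, against 53.6% of all genes with a length. The sum of the list was 5266, 6581, 4292, 1995 and 4703 TPM. Cbln1, the synapse organiser released by parallel fibres, led with 1162, 1342, 816, 625 and 863 TPM. Neurod1, a transcription factor of granule neuron differentiation, had 648, 833, 520.3, 140.4 and 578 TPM. Zic2 and Zic1, zinc finger factors of the granule lineage, had 542 ± 186 and 441 ± 201 TPM, Rbfox3 (the NeuN antigen) 484 ± 188 TPM, and Fat2, a cadherin known from granule cells and their parallel fibres, 309 ± 157 TPM. In TPM, control 4 was the lowest library and control 2 the highest for each of these. By CPM, 13 of the 17 members above 10 CPM were lowest in control 4. The same held for 43.1% of all 10699 genes with a mean of at least 10 CPM. TPM also ran low in control 4 for a gene steady in CPM: Rnf10 had 188 TPM there and 252 to 270 TPM in the others.

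Markers of other cells, summed over more genes, exceeded the sum of the identity list. The summed level of 6 lists of glial, immune, mesenchymal, vascular and choroid markers was 5.08, 2.84, 5.22, 18.8 and 6.63 times that of the identity list. The lists of astrocytes, microglia, oligodendrocytes, fibroblasts, endothelium and choroid plexus hold 18, 18, 16, 18, 12 and 8 genes, and the identity list 18. The ratio therefore also depends on list size. The sums compare lists of different genes and are not shares of cells. Without control 4 the ratio ran from 2.84 to 6.63. What part transcript length has in the 18.8 of control 4 was not tested. The astrocyte and Bergmann glia list summed to 12799.9, 8413, 7175, 22048 and 4234 TPM, a mean of 10934 ± 6935 and 8155 ± 3558 without control 4. Behind Apoe and Gfap came Fabp7, a fatty acid binding protein of radial and Bergmann glia, at 2069.9, 1104, 848, 2892 and 189 TPM, the water channel gene Aqp4 at 344 ± 168 TPM and the glutamate transporter gene Slc1a3 at 314 ± 153 TPM. Apoe alone made up 45.4 ± 5.65% of the sum. All 18 members reached 1 TPM in each library, against 53.6% of all genes with a length, and control 5 had the lowest sum.

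The fibroblast and meningeal list ran in another order, with 5977, 4945, 12236, 4972 and 19688 TPM. Col3a1 had 1172, 613, 2271, 801 and 4833 TPM, Col1a1 752, 585, 1823, 844 and 3871 TPM and the smooth muscle actin gene Acta2 486, 433, 932, 495 and 839 TPM. Controls 3 and 5 were the highest libraries for all 3 of these, the reverse of their place for Gfap and Fabp7. Microglia and macrophage markers summed to 5645, 3500.1, 1539.6, 6351 and 2347 TPM. Lyz2, a lysozyme of myeloid cells, led them with 2323, 1715, 710.5, 1891 and 866 TPM, and the complement gene C1qa had 500.1, 235, 99.3, 1221 and 291 TPM. Control 3 was the lowest library for both.

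Of these 6 lists, oligodendrocyte markers had the most uneven sum, with a 7.90-fold range. Their list summed to 616, 116, 502, 847 and 912 TPM, with Mbp, a major protein of myelin, at 151, 5.74, 87.1, 103 and 243 TPM. Control 2 lay far below the others for Mbp and for the sum. The choroid plexus list summed to 1590.5, 1609, 733, 3196 and 3789 TPM, most of it Ttr, the transthyretin of choroid epithelium. Endothelial markers summed to 134, 126, 229, 137 and 227 TPM, and the most abundant of them, Eng and Cdh5, had 81.8 ± 19.2 and 60.8 ± 30.4 TPM. Blood markers summed to at most 6.49 TPM, with Hbb-bs at 0 counts in every library.

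**Figure D2:**
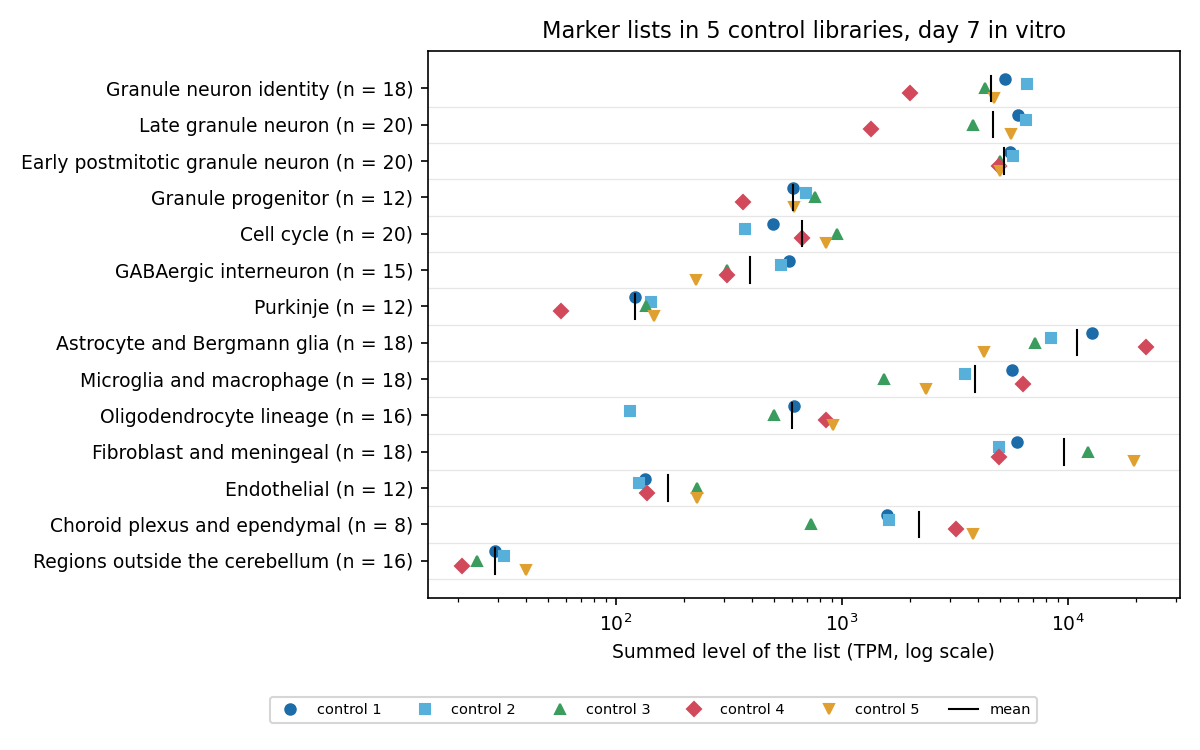
Summed level (TPM, log scale) of each marker list in the 5 control libraries, with 1 symbol per library, a black line at the mean, and the number of genes with a length in brackets. Control 4 is lowest for granule neuron identity (1995 TPM) and highest for astrocytes (22048 TPM), control 2 lowest for oligodendrocytes (116 TPM), and control 5 highest for fibroblasts (19688 TPM).

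Other neurons of the cerebellum left smaller traces. Interneuron markers summed to 583, 536, 309.7, 310.0 and 226 TPM, led by Gad1, which encodes an enzyme of GABA synthesis, at 189, 207, 126, 70.5 and 76.8 TPM. The GABA transporter gene Slc32a1 had 117, 102, 61.2, 69.7 and 40.4 TPM. Both were lower in controls 3, 4 and 5 than in controls 1 and 2. Of the Purkinje list, Icmt and Rora, which are not restricted to Purkinje cells, made up most of the sum of 121 ± 37.3 TPM, while the defining marker Pcp2 had 0 counts in each library, Ppp1r17 at most 2 and Calb1 5.27 ± 1.93 TPM. Eomes, a marker of unipolar brush cells, had 5.13 ± 0.838 TPM. The list for unipolar brush and nuclear neurons summed to 3305 ± 921 TPM, most of it Spp1, which macrophages and fibroblasts also express.

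Progenitors and dividing cells were judged by their own lists. Atoh1, which defines granule progenitors, had at most 1 count in a library. Ccnd1 and Ccnd2, cyclins that many dividing cells use, led the progenitor list with 241 ± 68.4 and 159.9 ± 76.1 TPM. The 20 cell cycle genes all reached 1 TPM in each library, against 53.6% of all genes with a length. They summed to 497, 372, 948, 664 and 853 TPM. Top2a, a topoisomerase of dividing cells, had 28.1, 18.1, 75.9, 29.7 and 74.6 TPM, highest in controls 3 and 5. By CPM, 12 of the 20 genes were highest in control 4, as were 35.9% of all 10699 genes. In which cells these genes were expressed was not tested.

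Late and early genes of granule neuron maturation were both present. The median level of 20 late genes was 104, 114, 63.2, 21.0 and 97.8 TPM, and that of 20 early postmitotic genes 130, 146, 116, 63.7 and 104 TPM, a log2 ratio of -0.32, -0.35, -0.87, -1.60 and -0.09. The mean was -0.65 ± 0.61 and -0.41 without control 4. The lists hold different genes, so the ratio gives neither an age nor a ranking by maturity. Summed instead, the early list varied less, with 5553, 5701, 5013, 4931 and 4980 TPM. Late genes at high level besides Snap25 were Camk4, a calcium-dependent kinase of granule neurons, at 1047, 1159.7, 562, 181 and 1128 TPM, and Cbln3, a partner of Cbln1, at 339.7, 310.5, 204, 53.1 and 259.9 TPM. Early genes at high level were Nrep at 1375 ± 273 TPM, Stmn2, a regulator of axonal microtubules, at 908, 1130.1, 724, 380.4 and 590.0 TPM, and Gap43, a growth cone protein, at 246, 269.8, 186, 164 and 137 TPM. The early list also held tubulin genes that other cells express, Tubb5 among them at 797 ± 210.2 TPM.

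The synapse genes were led by the release machinery. Its 25 members summed to 6220.4 ± 2275 TPM. Of them, 24 reached 1 TPM in all 5 libraries, against 53.6% of all genes with a length. After Snap25 came Syp (synaptophysin) at 744, 850.5, 550.0, 423 and 622 TPM, Vamp2, the vesicle SNARE, at 611, 725, 479.8, 411 and 679.7 TPM, and Rab3a, a GTPase of vesicles, at 468 ± 143 TPM. Syp and Vamp2 varied 1.48-fold and 1.44-fold in CPM between the highest and lowest library, against 3.81-fold for Snap25. Among postsynaptic scaffolds Dlgap3, Nlgn2, Dlgap1 and Dlg4 led with 125 ± 37.9, 114 ± 25.3, 99.7 ± 46.3 and 95.2 ± 28.9 TPM. Dlg4 (PSD-95) exceeded Dlg3 (SAP102) in 5 of 5 libraries per longest transcript, by 0.70 ± 0.24 on the log2 scale. With merged exon lengths it was the higher in 2 of 5, with a mean of -0.13, so this order depends on the length used.

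Glutamate release rested on Slc17a7, the vesicular transporter VGLUT1. It had 583, 469.9, 308, 226 and 899 TPM, and its neighbour in function Slc17a6 (VGLUT2) 10.9, 25.6, 18.6, 2.12 and 11.5 TPM. Slc17a7 made up 97.0 ± 2.28% of the pair, at least 94.3% in any library. In TPM, control 5 had the most Slc17a7 and control 4 the least.

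For NMDA receptors, the obligatory subunit gene Grin1 had 185, 269, 159, 80.2 and 176 TPM. Among the GluN2 genes, whose products set the channel's kinetics, Grin2c led in every library per longest transcript, with 41.1, 34.5, 23.5, 12.1 and 60.5 TPM. Grin2a had 4.16, 6.64, 3.53, 0.00879 and 4.38 TPM and Grin2b 2.27, 3.88, 2.32, 0.112 and 1.19 TPM. Grin2a rested on 1 count in control 4 and on 302 to 639 counts elsewhere. The share of Grin2c in the 4 GluN2 genes was 83.7, 74.4, 73.7, 87.7 and 87.3%, and that of Grin2b 4.63, 8.37, 7.27, 0.811 and 1.72%.

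These shares rest on length, since the longest annotated transcript of Grin2b has 24.1 kb. Per kilobase of coding sequence Grin2c had 65.9 ± 14.9%, Grin2a 15.1 ± 9.22% and Grin2b 13.8 ± 8.92% of the 4 genes. Grin2c still exceeded Grin2b in 5 of 5 libraries, by 2.58 ± 1.55 on the log2 scale. Per median annotated transcript the order turned in controls 2 and 3, where Grin2b held 50.6 and 48.2% and Grin2c 31.6 and 34.2%, and Grin2c stayed the higher in controls 1, 4 and 5.

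AMPA receptor genes had no single leader. Gria4 had 129.7, 124, 78.4, 46.1 and 81.5 TPM, Gria1 107, 88.5, 69.8, 72.5 and 9.38 TPM, Gria2, whose edited product makes the channel impermeable to calcium, 64.0, 108, 76.9, 13.9 and 82.1 TPM, and Gria3 42.8, 44.4, 53.0, 19.1 and 28.0 TPM. Per longest transcript Gria4 exceeded Gria2 in 4 of 5 libraries, and per coding length in 2 of 5, where Gria2 led on average with 38.5 ± 15.6% against 27.6 ± 3.59%. The share of Gria2 was 25.2 ± 11.9% per longest transcript. The order of Gria4 and Gria2 thus differed with the length used.

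Gria1 was low in control 5 alone. It had 17.2 CPM there and 131 to 203 CPM in the others. Genes of astrocytes and Bergmann glia were low in the same library: Mlc1, a membrane protein of astrocyte endfeet, had 154, 176, 174, 389 and 28.0 CPM, Hopx 160.3, 83.8, 64.4, 268 and 11.7 CPM and Gpr37l1, a glial receptor, 172, 121, 105, 251 and 20.8 CPM. Of the 18 astrocyte markers, the whole list summed to 4234 TPM in control 5 and to 7175 TPM or more in the other libraries, and none was at 0. Their part in the level of Gria1 was not tested. Without control 5, the Gria1 levels ran from 69.8 to 107 TPM.

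Auxiliary subunits of AMPA receptors were led by Cnih2, a cornichon protein, at 97.0, 101, 66.2, 114 and 94.9 TPM. Cacng7 had 43.5 ± 18.6 TPM, Cacng5 35.1 ± 22.7 TPM and Cacng2 (stargazin), the family member whose loss gives the stargazer mouse, 35.4, 41.6, 21.9, 6.45 and 23.8 TPM. Of kainate receptor genes, Grik5 had 74.2 ± 19.7 TPM and Grik2 39.2 ± 18.4 TPM per longest transcript, and the order turned per coding length, with Grik2 at 47.1 ± 16.7% and Grik5 at 37.4 ± 18.8% of the 5 genes. The auxiliary subunit Neto2 had 63.7, 70.8, 48.4, 17.3 and 56.5 TPM and Neto1 at most 0.410 TPM. Neto2 exceeded Neto1 in 5 of 5 libraries.

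Metabotropic glutamate receptors were led by Grm4, the presynaptic mGlu4 of parallel fibres, with 206, 311, 229, 57.3 and 296 TPM. It held 73.7 ± 5.19% of the 8 genes. Grm2, known from Golgi cells, had 2.51, 1.10, 0, 9.12 and 0.219 TPM, and Grm6 at most 1 count.

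The GABA-A receptor genes showed a steady make-up of alpha subunits while their level changed. Gabra6, the alpha subunit known from granule neurons, had 284, 299, 191, 62.3 and 240.2 TPM. The share of Gabra6 in the 6 alpha genes was 66.2, 63.5, 64.6, 63.9 and 70.1%. Control 4 lay within the range of the others in this share but below all of them in level, where the mean without it was 254 ± 48.4 TPM. Per coding length Gabra6 held 51.6 ± 2.79% and led the alpha genes in 5 of 5 libraries. Per median annotated transcript its mean share was 21.6% and it led in 0 of 5, so its rank depends on the length used.

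Of the 3 beta subunit genes, Gabrb2 had 221, 296, 192, 32.4 and 209.8 TPM and Gabrb1 1.54 ± 0.602 TPM. Gabrb2 held 65.5 ± 7.45% of them per longest transcript and 55.5 ± 8.39% per coding length, and it led in 5 of 5 libraries by the first and in controls 1, 2, 3 and 5 by the second. Gabrd, whose product replaces the gamma subunit in receptors outside synapses, had 104, 114, 72.9, 67.4 and 135 TPM. Gabrd held 61.0, 62.4, 61.1, 77.0 and 78.3% of the delta and gamma genes, so controls 4 and 5 lay above controls 1 to 3. Per coding length the share was 51.9 ± 10.4% and Gabrd led these genes in controls 4 and 5 only.

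Gabra6 and Gabrb2 both lie on mouse chromosome 11 (GENCODE M21, GRCm38), Gabra6 at chr11:42306437-42321072 on the minus strand and Gabrb2 at chr11:42419757-42629028 on the plus strand. The level of both was lowest in control 4.

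Of the other inhibitory receptors, Gabbr1 had 119, 140.3, 96.7, 50.6 and 138 TPM and its obligate partner Gabbr2 68.1, 103, 63.7, 4.14 and 71.8 TPM. Control 4 had a low Gabbr2 with a Gabbr1 nearer to the others. The glycine receptor beta gene Glrb had 70.6 ± 30.7 TPM and Glra2 12.2 ± 4.22 TPM, while the other 3 alpha genes stayed under 1 TPM in all libraries. Slc12a5, the potassium-chloride exporter KCC2, had 222, 305, 186, 69.8 and 256 TPM and Slc12a2, the chloride importer NKCC1, 67.3, 94.1, 71.7, 25.4 and 143 TPM. The log2 ratio was 1.72, 1.70, 1.38, 1.46 and 0.84, a mean of 1.42 ± 0.36 and a 2.67-fold excess. Control 5 had the lowest ratio and the highest Slc12a2. Slc12a2 is also expressed by choroid plexus and glia: control 5 had the highest choroid plexus sum (3789 TPM) and the lowest astrocyte sum (4234 TPM), while control 4, with the highest astrocyte sum and a choroid plexus sum of 3196 TPM, had the lowest Slc12a2. The part of these cells in the ratio was not tested.

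**Figure D3:**
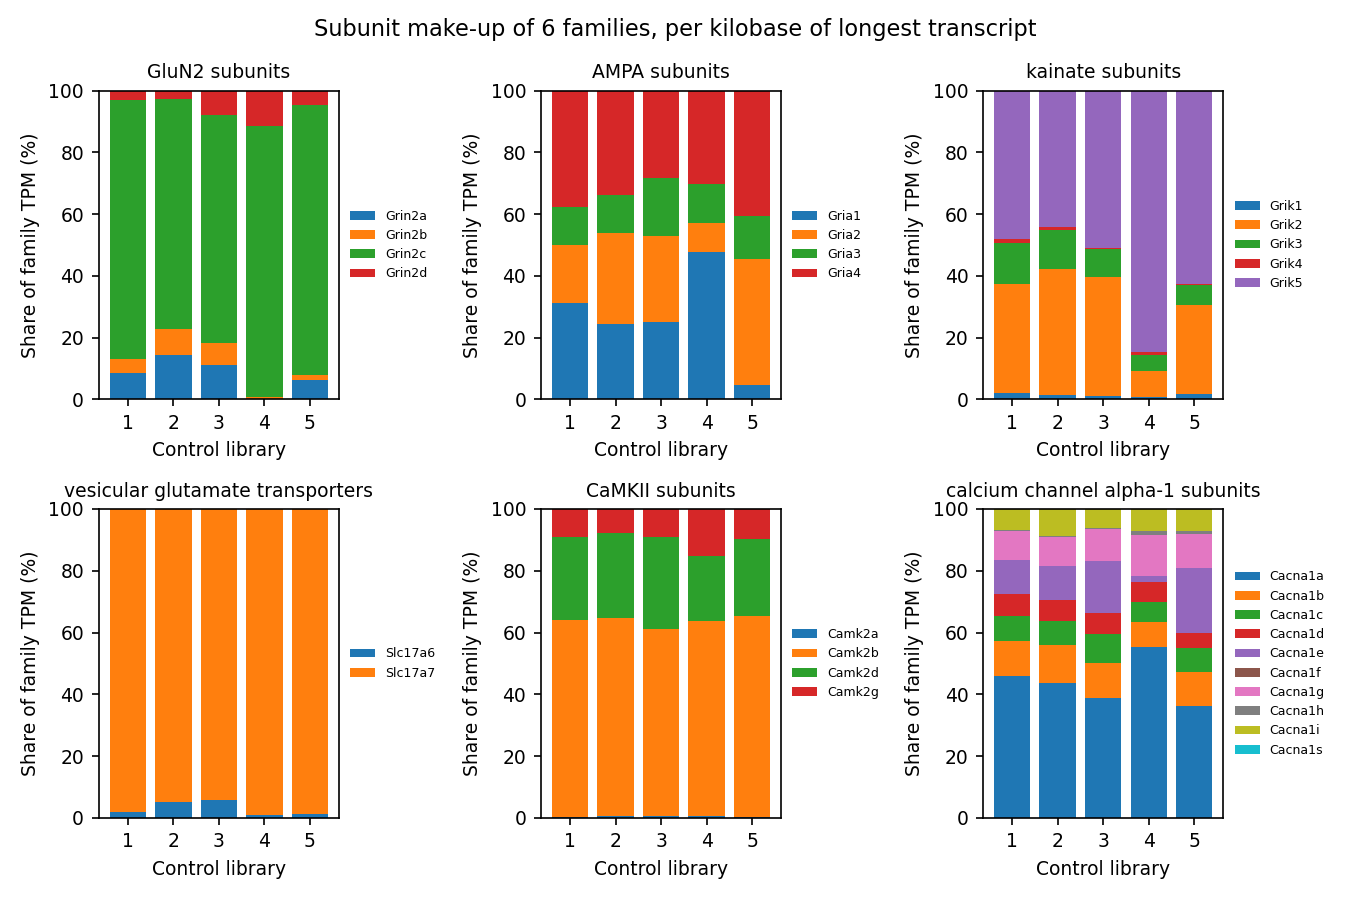
Share of each gene (%, stacked bars, vertical axis) in the summed TPM of its family in control libraries 1 to 5 (horizontal axis), per kilobase of longest transcript, for 6 families. Grin2c holds 73.7 to 87.7% of the GluN2 genes, while Gria1 ranges from 4.67 to 47.8% of the AMPA receptor genes.

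**Figure D4:**
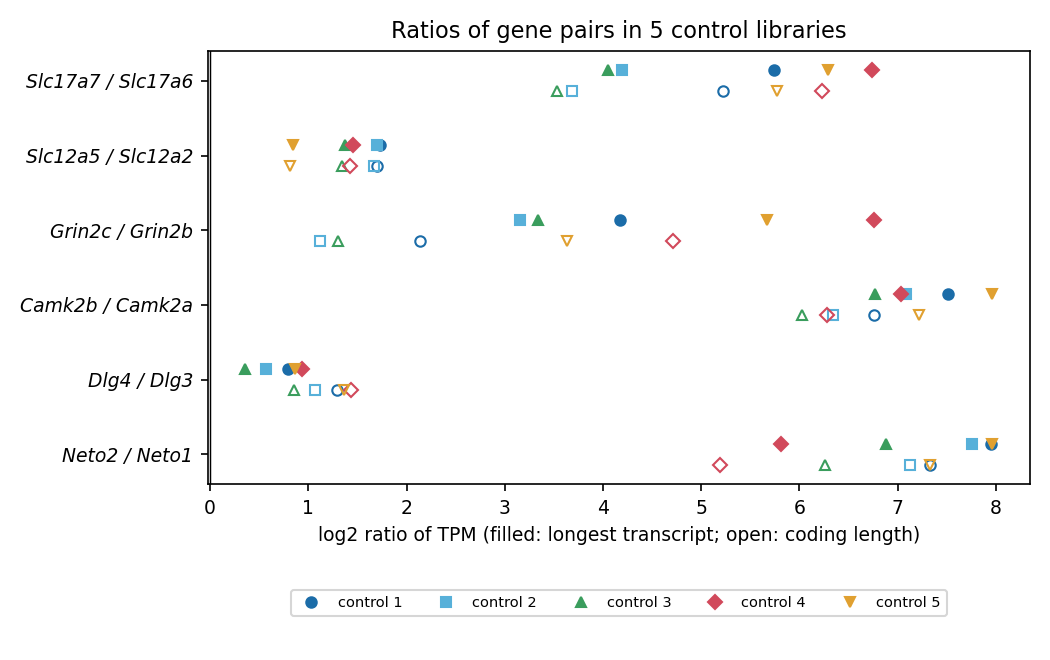
Log2 ratio of TPM between 6 pairs of genes (horizontal axis) in each control library, per longest transcript (filled symbols) and per coding length (open symbols). All ratios lie above 0 in all 5 libraries with both lengths, though with lengths not drawn Dlg4 over Dlg3 falls below 0 in controls 1 to 3 (merged exons) and Grin2c over Grin2b in controls 2 and 3 (median transcript).

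Voltage-gated potassium channels were led by Kcnc1 (Kv3.1), a channel of fast firing neurons, with 331, 399, 223, 70.0 and 291 TPM. Kcna1 (Kv1.1) had 190.4, 231, 135, 37.4 and 179 TPM. Kcnd2 (Kv4.2), which carries the A-type current, had 86.6 ± 40.3 TPM. Its partners Dpp6 and Kcnip3 stood at 172 ± 67.0 and 114 ± 31.6 TPM. Of 30 genes on the list, 14 reached 1 TPM in all libraries and 6 stayed under it in all. Over all genes with a length these shares were 53.6 and 37.7%.

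Background channels of the tandem-pore family were led by Kcnk1 at 199.9, 235, 157, 73.2 and 179.5 TPM, Kcnk12 at 176, 204, 107, 49.4 and 112 TPM and Kcnk3 (TASK-1) at 106, 115, 65.8, 39.0 and 91.3 TPM. Kcnk9 (TASK-3), a leak channel described in granule neurons, had 8.54, 18.8, 11.3, 0.0628 and 12.9 TPM, close to 0 in control 4. The longest Kcnk9 transcript has 12.3 kb. Inward rectifiers were led by Kcnj12 at 76.9 ± 32.1 TPM and Kcnj3 (GIRK1) at 68.6 ± 33.9 TPM. Kcnj10, the Kir4.1 channel of glia, had 86.8, 34.3, 31.5, 77.2 and 25.3 TPM and was highest in controls 1 and 4. These libraries had the highest sums of both the astrocyte and the microglia lists.

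Sodium channel genes were mainly Scn2a1 (Nav1.2) at 84.1, 106, 68.6, 11.8 and 86.3 TPM and Scn8a (Nav1.6) at 56.9, 77.4, 48.1, 18.4 and 53.6 TPM. Scn2a1 was the higher in controls 1, 2, 3 and 5 and Scn8a in control 4, per longest transcript and per coding length. Per median annotated transcript Scn8a was the higher in 5 of 5 libraries, at a mean of 74.2 against 20.9% of the family. Among calcium channels Cacna1a, the pore of the P/Q-type channel, led every library per longest transcript, with 214, 272, 185, 68.0 and 199 TPM and held 44.0 ± 7.42% of the 10 genes. Per coding length Cacna1a led in controls 1 to 4 and Cacna1e in control 5, with 31.1 against 27.2%, and per median annotated transcript Cacna1i led in 5 of 5 libraries with a mean of 51.0%. Cacna1e (R-type) had 51.9, 67.5, 79.6, 2.17 and 116 TPM, the widest range of the list at 38.1-fold in CPM. Cacna1b (N-type) had 50.4 ± 24.9 TPM and Cacna1g (T-type) 45.3 ± 17.6 TPM. Without control 4 the mean of Cacna1e was 78.8 ± 27.3 TPM.

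Hcn2, a hyperpolarisation-activated channel, had 48.4, 60.8, 37.0, 42.7 and 52.5 TPM. The sodium leak channel Nalcn and its partner Unc80 had 26.9 ± 14.2 and 35.9 ± 18.4 TPM. Among calcium/calmodulin kinases Camk2b held 63.7, 64.2, 60.7, 63.3 and 65.0% of the 4 CaMKII genes, and Camk2a 0.260 to 0.554%. Camk2b exceeded Camk2a in 5 of 5 libraries, by 7.28 ± 0.47 on the log2 scale. Camk2a, a kinase of forebrain synapses, rested on 44 to 118 counts.

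**Figure D5:**
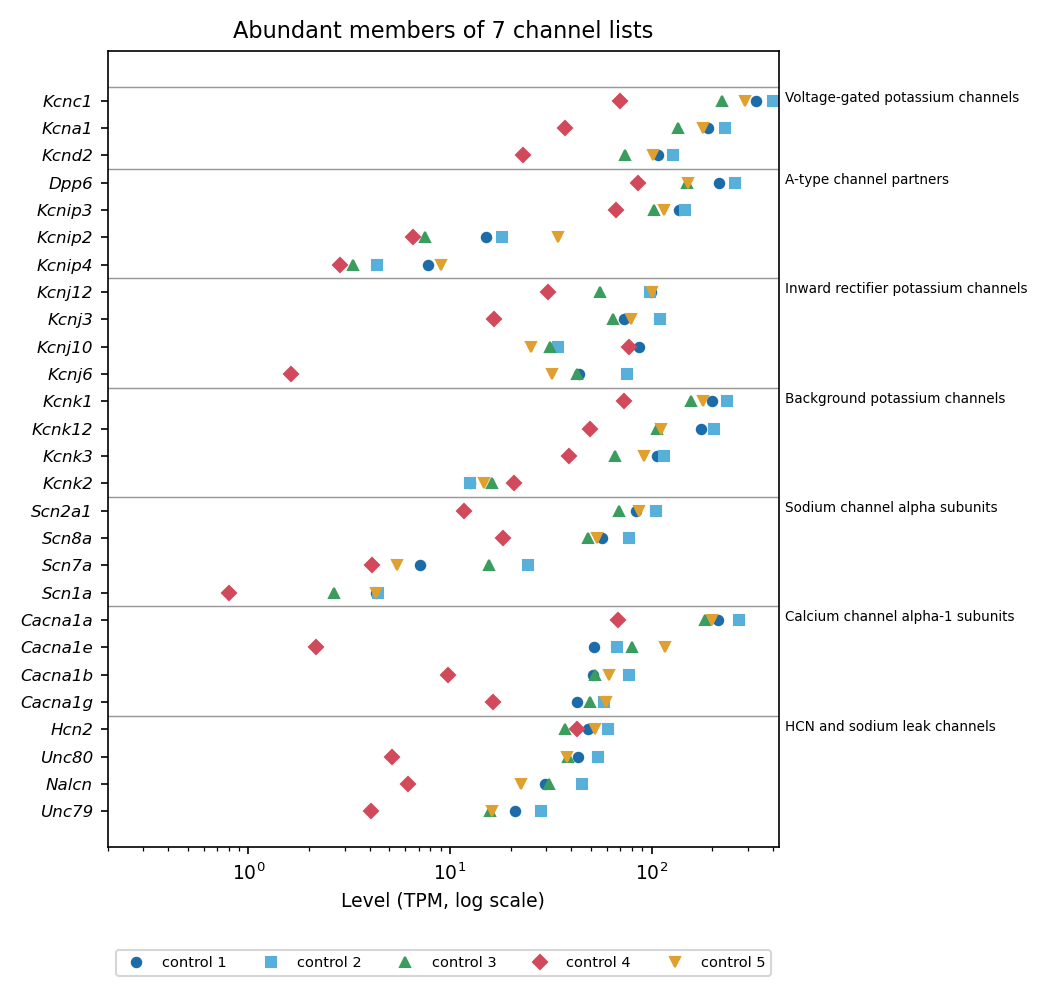
Level (TPM, log scale, horizontal axis) of up to 4 abundant genes from each of 7 channel lists, with 1 symbol per control library. Control 4 is the lowest library for most of them, with Cacna1e at 2.17 TPM, and Kcnj10 and Kcnk2 are among the exceptions.

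The libraries differed from each other by more than counting error. The biological coefficient of variation, the spread beyond counting noise estimated by edgeR over 13622 genes, was 0.383, and it was 0.264 without control 4. Of 10699 genes with a mean of at least 10 CPM, 1287 (12%) ranged 4-fold or more between the highest and the lowest library. Without control 4 this held for 304 of 10583 genes (2.87%), and the median range went from 2.03-fold to 1.38-fold. By list, 9 of 18 late granule genes, 9 of 16 astrocyte genes, 10 of 16 microglia genes and 8 of 9 oligodendrocyte genes ranged 4-fold or more. So did 9 of 18 fibroblast genes, 5 of 5 choroid plexus genes and 10 of 20 cell cycle genes. Among identity genes it was 4 of 17, and among early genes 3 of 19.

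Control 4 was at least 2 times every other library for 668 genes (6.24%) and at most 1/2 of every other library for 1404 (13.1%). Ptgds, a prostaglandin synthase of meninges and choroid plexus, had 16.5, 9.03, 4.73, 886 and 33.6 CPM, and Slc6a13, a GABA transporter known from meninges, 8.05, 1.62, 4.73, 87.2 and 3.65 CPM. The fibroblast and meningeal list summed to 4972 TPM in control 4 and to 4945 to 19688 TPM in the others. The choroid plexus list summed to 3196 TPM there and to 733 to 3789 TPM in the others. C1ql1, a C1q family gene, had 7.47, 2.85, 2.94, 74.4 and 5.20 CPM. The 6 genes lowest in this library against the others had transcripts of 5.01 to 12.9 kb. Tenm1, a teneurin, had 91.4, 165, 104, 0.418 and 129 CPM, and the imprinted gene Peg3 236, 336, 235, 5.38 and 245 CPM.

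Control 5 was at least 2 times every other library for 57 genes (0.533%) and at most 1/2 for 86 (0.804%). Ndufa4l2, which encodes a mitochondrial protein, had 1.72, 2.26, 4.21, 11.1 and 92.4 CPM. Slc16a3, the lactate exporter MCT4, had 10.9, 17.1, 13.5, 38.3 and 201 CPM, Pdk1, a kinase that restrains pyruvate entry into mitochondria, 141 CPM there and 24.6 to 35.3 in the rest, and Pygl, a glycogen phosphorylase, 7.16, 5.55, 4.90, 6.57 and 31.5 CPM. Nos2, the inducible nitric oxide synthase, had 2.51, 13.7, 24.2, 3.46 and 121 CPM. Gapdh and Aldoa, described above, were highest in the same library.

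Control 2 was at most 1/2 of every other library for 59 genes (0.551%) and at least 2 times for 0. The low genes were led by those of myelin: Mbp had 247, 8.89, 141, 228 and 386 CPM, Mag 20.6, 0.147, 7.90, 21.4 and 42.2 CPM and Cldn11 104, 10.6, 126, 359 and 176 CPM. Cldn11 is also made by meningeal cells.

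Control 1 was at least 2 times every other library for 3 genes (0.028%) and at most 1/2 for 7 (0.0654%). The high ones were led by the macrophage genes Cd5l, with 84.3, 7.61, 2.48, 24.1 and 9.31 CPM, and Cd36, with 97.7, 34.4, 16.4, 26.3 and 14.6 CPM. Eif3j1 had 0 counts in control 1 and 36.2 to 48.5 CPM in the others, and its near-identical copy Eif3j2 had 58.1 TPM in control 1 and 0 in the others, so the level of either gene alone is uncertain. Control 3 was at least 2 times every other library for 8 genes (0.0748%) and at most 1/2 for 28 (0.262%). Prelp and Ogn, small proteoglycans of connective tissue, had 41.9, 56.1, 211, 64.7 and 76.9 and 88.2, 85.6, 234, 65.7 and 109 CPM.

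Some genes hardly varied. The 10 steadiest genes with a mean of at least 50 CPM were led by Rnf10, a ubiquitin ligase, at 302 ± 4.82 CPM, with a coefficient of variation of 1.59%. Nub1 followed at 118 ± 1.89 CPM, Entpd4 at 54.3 ± 1.10, Vapb at 166 ± 4.39 and Smarca4, an ATPase of chromatin remodelling, at 243 ± 6.44 CPM. Kdm6b, the demethylase that the series manipulated in its other groups, had 62.0, 78.2, 60.5, 26.6 and 83.0 TPM in the controls, and its X-linked relative Kdm6a 28.3, 37.1, 22.9, 4.14 and 26.2 TPM. Control 4 was the lowest library for both.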

How the data were processed

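RNA from the control cultures was extracted with the RNAqueous Micro Kit and libraries were made by Novogene, per the labels' protocols. The authors deposited 1 table of estimated counts per gene for the whole series, with a name that gives salmon. Per the submitters' processing notes, reads were referred to the mm10 build. For the version, annotation and filters nothing is stated in these sources. Of the values in each control column, 7.23 to 10.3% were fractional.

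The 5 control columns were taken by name. The counts were divided by GENCODE M21 transcript lengths to give TPM. A length was found for 24042 of 24411 genes, 666 of them by an older symbol. CPM used TMM scaling (edgeR 4.0.16, R 4.3.3), and dispersion was estimated from rounded counts and checked on simulated data. Genes without a length, Rn45s among them, held 0.303 to 5.21% of counts and have no TPM. No pair of libraries was identical, so each was kept as a sample.

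The named genes were the 25 most abundant by mean TPM and 10 by mean CPM; list members in order of mean TPM; for each library, up to 6 genes with the largest gap to the nearest library in each direction (mean of at least 10 CPM); and the 10 of smallest variation (at least 50 CPM). Some of these are not reported here. Members and lists were chosen with earlier results of these data known. Alternatives were other lengths, thresholds, DESeq2 1.42.0 factors and leaving out each library.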

Additional observations from a re-analysis of the deposited data

Results flagged for a closer look

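For each value described above, the gap between the library farthest out and its nearest neighbour was divided by the range of the 5 libraries, and values above 0.71 are given here. Of 183 values checked, 29 lay above it. Chance gives about 1 in 20 for groups not chosen by their values, but many genes here were named for a large gap or a small spread between these libraries, so the 2 rates cannot be compared. Control 4 was the library apart for 14 of them and control 5 for 9.

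In control 4 the ratio was 0.954 for Ptgds, 0.913 for C1ql1, 0.898 for Slc6a13, 0.739 for Igfbp2, 0.725 for Grm2 and 0.716 for Rplp1, all of them higher there. It was 0.719 for Rora, 0.769 for Suz12 and 0.716 for Egr1, which were lower there. Genes that hardly varied in CPM were also lower in control 4 in TPM, with 0.786 for Rnf10, 0.805 for Nub1, 0.851 for Entpd4, 0.734 for Vapb and 0.742 for Smarca4: Rnf10 had 252, 269.9, 254, 188 and 269 TPM.

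In control 5 the ratio was 0.945 for Pdk1, 0.931 for Ndufa4l2, 0.915 for Pygl, 0.912 for Slc16a3, 0.820 for Nos2, 0.819 for Gapdh, 0.764 for Aldoa and 0.749 for Fos, all higher there, and 1 for Grm6, which rested on 1 count. In control 1 it was 0.815 for Cd5l, 0.742 for Cd36 and 1 for Eif3j2 and in control 3 0.783 for Prelp. The ratios of 0.747 for Atoh1 and 1 for Ppp1r17, with control 3 apart, rested on at most 2 counts. The causes were not tested.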

How the results depend on the processing

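The length used for TPM moved the make-up of families most. The share of Gabra6 was 74.1% with merged exons, 21.6% with the median transcript and 51.6% with the coding length, a length added after the data were seen. The share of Grin2b was 33.0% with the median transcript and 13.8% with the coding length. With the coding length the share of Gria2 was 38.5% and that of Gabrd 51.9%. The log2 ratio of Slc12a5 to Slc12a2 was 1.86 with merged exons and 1.80 with the median transcript. With the median transcript Gabra6 led the alpha genes in 0 of 5 libraries, Scn8a exceeded Scn2a1 in 5 of 5, Cacna1i led the calcium channels, and Grin2b exceeded Grin2c in controls 2 and 3. With merged exons the log2 ratio of Dlg4 to Dlg3 was -0.13. Median transcripts include annotated fragments. Without Rn45s and Malat1 the 100 most abundant genes took 14.4% of counts; the table lists no mitochondrially encoded genes.

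The count of genes ranging 4-fold was 2519 with a minimum of 1 CPM and 5492 at 2-fold. DESeq2's median gene-wise dispersion gave a coefficient of variation of 0.295. Leaving out each library in turn, the 4-fold count ran from 304 (without control 4) to 1275, and the coefficient of variation from 0.264 (without control 4) to 0.418. Of the shares, ratios and counts, the remaining 55 of 68 values from other settings moved by less than the spread between libraries, or by under 1.5 times for counts. Of the levels of single genes, 156 values moved by more than that spread and 539 by less. All 156 came from the choice of length. With the coding length 57 moved and 112 did not. With the median transcript 60 moved and 109 did not, and with merged exons 39 moved and 130 did not. No paired analysis was possible because the results come from 1 group with no contrast and no test. Genes near 0, such as Grin2a in control 4, rest on few counts and are imprecise. The total of control 4 was 16145488 counts, against 17406782 to 20598548 in the others. Why Grin2a was low there was not tested.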

Other observations

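Levels of activity-regulated genes differed widely from gene to gene in the control libraries. Of 20 such genes, 18 reached 1 TPM in all 5 libraries, against 53.6% of all genes with a length. The list summed to 994, 1123, 898, 544 and 1208 TPM. Nptx1, a pentraxin that gathers AMPA receptors, led with 390.0, 496, 265, 73.0 and 363 TPM. The immediate early genes Jun and Junb had 137 ± 22.4 and 136 ± 18.7 TPM, Egr1 73.6 ± 25.7 TPM and Fos 23.5, 26.4, 26.4, 20.8 and 43.2 TPM. Fos was highest in control 5. Among the lower members, mean levels were 7.03 TPM for Bdnf, 2.87 for Npas4, 2.67 for Arc and 0.741 for Fosb.

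The enzymes of H3K27 methylation, the mark that Kdm6b removes, were all present. All 9 genes were at 1 TPM or more in each library, against 53.6% of all genes with a length. Jarid2, a partner of the Polycomb complex PRC2, had 93.3 ± 41.7 TPM, the core subunits Suz12 and Eed had 44.0 ± 17.2 and 43.5 ± 7.39 TPM, and the methyltransferases Ezh1 and Ezh2 had 31.0, 37.7, 31.4, 16.4 and 33.1 and 19.3, 15.7, 28.5, 19.9 and 24.9 TPM. Ezh1 exceeded Ezh2 in controls 1, 2, 3 and 5.

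Both Xist, the RNA that silences an X chromosome in female cells, and Y-linked transcripts were found in each library. Xist had 169, 255, 56.5, 36.1 and 82.2 TPM, and 4 Y-linked genes summed to 76.1, 76.8, 152, 32.5 and 119 TPM. Otx2, a homeobox gene of midbrain, choroid plexus and cerebellar progenitors, had 22.5, 26.9, 16.9, 11.0 and 32.3 TPM. Of 16 genes that mark regions outside the cerebellum, 12 stayed under 1 TPM in all 5 libraries. The same held for 37.7% of all genes with a length.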
